A study of Mus musculus with 8 samples.

Results

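The enzymes that add acetyl groups to lysines, the enzymes that remove them, and proteins that read or scaffold the mark are described here in the adult mouse striatum with and without Dclk3. The set holds 33 genes chosen by name from the gene table, not by their values, though earlier results of these data were known. They are 11 histone deacetylases, 7 sirtuins, 8 acetyltransferases, 5 bromodomain readers or scaffolds and 2 corepressors. All 33 were among the 31417 genes of the table and all 33 passed the filter on low counts, which kept 16511 genes. There were 4 wild-type libraries, titled as knockout controls, and 4 labelled Dclk3 knock out, all of adult mice aged 12 months, with a single striatum per library. The labels give neither the deleted part of Dclk3 nor the sex, strain or litter of the mice, and they do not say that every striatum is from its own mouse, in which case p-values measure only the spread between these libraries. A whole striatum mixes spiny neurons, interneurons, glia and vessels.

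Acetylation of histone tails loosens chromatin and provides docking sites for bromodomains. Acetyltransferases such as CBP and p300 place the mark at enhancers and promoters, while deacetylases remove it, most of them inside corepressor complexes. Zinc-dependent deacetylases fall into class I, which is nuclear, class IIa, which shuttles out of the nucleus when phosphorylated and has little catalytic activity of its own, class IIb, which is largely cytoplasmic, and class IV. Sirtuins form a separate family that consumes NAD. In the striatum these genes are known for their part in transcription after dopamine and cAMP signals and have been studied in models of Huntington's disease.

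Library totals ran from 24441242 to 37145559 counts, and the members had between 156 counts (Hdac1) and 8106 counts (Ncor1) in a library. Dclk3, the targeted gene, was at 80.9 to 117 CPM in the wild-type group and 19.6 to 27.7 CPM in the knockout group, a log2 ratio of knockout to wild type of -2.06. Its Benjamini-Hochberg adjusted p was 0.000773 by the quasi-likelihood test of edgeR, fitted over all tested genes. The exact two-sided permutation test over 70 assignments gave p = 0.0286, the smallest this design allows. All 12 spiny neuron markers were abundant, the lowest at a mean of 105 CPM, so the tissue label fits its markers. One library stood apart in its dissection: the choroid plexus marker score, the mean log2 deviation of 8 genes from the mean of the libraries, was 3.62 in wild-type replicate 4 and between -1.15 and 0.589 in the others. Fold changes were also computed without that library.

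One member, Hdac1, has near-identical copies elsewhere in the genome, which bears on its value. Hdac1 (ENSMUSG00000028800, minus strand of chromosome 4 at 129516104 to 129542713, GRCm38) has a transcript of 2038 bases, and the processed pseudogene Gm10093 on chromosome 17 at 78491582 to 78493025 matches 1444 bases of it, almost the whole coding sequence of 1446 bases, at 99.4% identity. There are 9 mismatches in the match and a run of 450 bases with none. The stretch below holds the densest group of mismatches, bases 514 to 574 of the Hdac1 transcript and 430 to 490 of the copy, with the differing bases in capitals and all others identical.
Hdac1: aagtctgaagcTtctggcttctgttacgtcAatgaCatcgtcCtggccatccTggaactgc
Gm10093: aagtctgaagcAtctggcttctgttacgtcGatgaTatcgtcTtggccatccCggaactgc
Gm10093 itself was listed with 0 to 5 counts per library, where Hdac1 had 156 to 233. A second processed copy, AC125456.1, matches 1450 bases at 96.3% identity and was not analysed here. The sources used here do not say how the authors counted reads that match both Hdac1 and a copy, so the level of Hdac1 is uncertain. No other member had a match of at least 95% identity over most of its transcript.

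Levels per length, as TMM-scaled CPM per kilobase of merged exons, show how the genes rank against each other in wild type. Hdac11, the sole class IV deacetylase, which removes long fatty acyl groups, was the highest at 62.5 ± 5.73 (SD, n = 4), above 96.6% of the tested genes. Its lowest wild-type library (57.3) lay above the highest of any other member. Sirt2, a cytosolic sirtuin that deacetylates tubulin and is abundant in myelin-forming cells, followed at 26.6 ± 1.86, and Brd2, a bromodomain reader of acetylated histones, was at 25.7 ± 0.747; their wild-type ranges overlapped. Next came Hdac5 (22.4 ± 2.14), a class IIa enzyme, and Hdac3 (21.9 ± 1.99), the catalytic partner of the NCoR corepressor, whose ranges also overlapped.

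**Figure D1:**
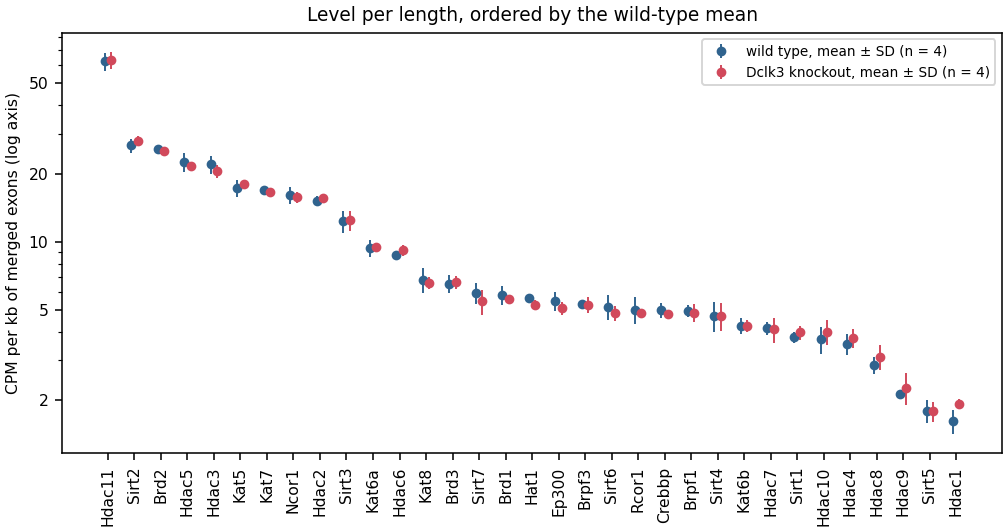
Level of each gene in CPM per kilobase of merged exons (log axis), ordered by the wild-type mean; points are means and bars the SD of 4 libraries per genotype. Hdac11 stands alone at the top at 62.5 in wild type, and most neighbours overlap.

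The lower end of the order held Hdac8 (2.86 ± 0.240), Hdac9 (2.13 ± 0.0940), the mitochondrial desuccinylase gene Sirt5 (1.80 ± 0.215) and Hdac1 (1.61 ± 0.195, SD, n = 4 each), with the limit on Hdac1 given above. The highest and lowest means differed 38.7-fold. Of the 32 neighbouring pairs in the order, 24 had overlapping wild-type ranges and are not separated by these libraries. The median over the members was 5.64 CPM per kilobase, against 4.20 over 16478 tested genes with a length, and 25 of the 33 lay above the latter. Merged exons include those of retained-intron transcripts, which lowers the per-length value of genes with many of them.

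Among the Hdac genes and among the sirtuins a small number of genes held most of the transcript level per length, and the acetyltransferases were more even. Hdac11 made up 41.9% ± 1.19 of the summed level of the 11 Hdac genes in wild type and 42.4% ± 2.18 in the knockout (SD, n = 4 each). Hdac5 made up 15.1% ± 0.957 in wild type, Hdac3 14.7% ± 0.615 and Hdac2, which shares the Sin3, NuRD and CoREST complexes with Hdac1, 10.2% ± 0.941. Sirt2 was 44.1% ± 2.41 of the 7 sirtuins in wild type and 45.7% ± 2.84 in the knockout, and Sirt3, the main mitochondrial deacetylase, was 20.4% ± 1.16 and 20.3% ± 1.58. Among the 8 acetyltransferases Kat5 (TIP60) held 22.2% to 27.3% over all libraries and Kat7 (HBO1) 22.8% to 25.1%, and their ranges overlapped. Kat6a came next at 11.8% to 14.2%, while Ep300 held 6.65% to 8.23% and Crebbp 6.29% to 7.55%.

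Ratios between related genes were compared per length in each library. The ratio of Ep300 to Crebbp per length, the genes of p300 and CBP, was 1.09 ± 0.0360 in the wild-type libraries and 1.07 ± 0.0824 in the knockout (SD, n = 4 each). Kat6a over Kat6b, the paired MOZ and MORF acetyltransferases, was 2.16 to 2.25 in wild type and 2.10 to 2.43 in the knockout. Brd2 over Brd3 was 3.43 to 4.33 and 3.51 to 4.15, and Hdac5 over Hdac4 was 4.83 to 7.09 and 5.16 to 6.57. Hdac2 over Hdac1 was 7.88 to 11.7 in wild type and 7.60 to 8.34 in the knockout. In each of these 5 pairs the ranges of the genotypes overlapped.

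The comparison of genotypes asks whether loss of Dclk3 shifts the transcripts of this machinery. With edgeR, 0 of the 33 passed the threshold of 0.05 on the adjusted p, where 0.00606% of all tested genes did, and the DESeq2 Wald test called 0 of 33 as well. With an unadjusted p under 0.05 there was 1 member, Hdac1, in edgeR and 0 in DESeq2, against 3.76% of all tested genes in edgeR and 1.96% for the higher side alone. Values above 0 were found for 16 members and below 0 for 17 (15 and 18 with DESeq2's size factors, where Sirt5 crossed 0), against 49.5% of all tested genes above 0. The median log2 fold change was -0.0025, against -0.0011 over all tested genes, and single members ran from -0.12 to 0.25. Wild-type and knockout libraries overlapped in all 33, where 1.93% of tested genes showed no overlap.

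**Figure D2:**
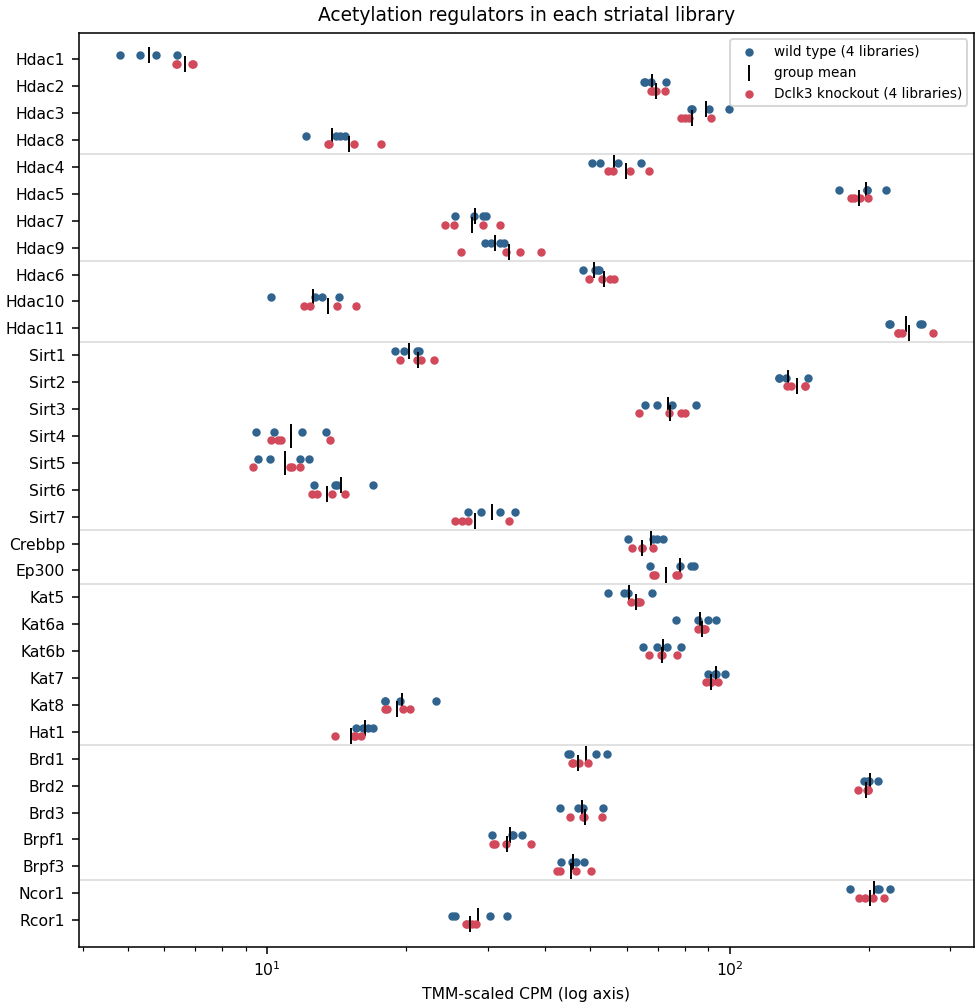
TMM-scaled CPM (log axis) of each gene in the 4 wild-type and 4 knockout libraries, grouped by role with grey lines between the groups; black bars are group means. The points of the genotypes overlap for all 33 genes.

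The intervals give the size of change that these libraries can bound. For 33 of 33 members the 95% interval excluded changes beyond 1.5-fold up or down, against 77.8% of all tested genes. It excluded changes beyond 1.25-fold for 29 of 33, against 54.8%. The tested genes were not matched to the members by level. Of the 16511, 11499 were at or above the lowest member mean, so these shares do not show a trait of the members. The 4 members with a wider interval were Hdac1 (bound 1.42-fold), Hdac10 (1.29-fold), Hdac8 (1.27-fold) and Sirt7 (1.26-fold). The narrowest were Brd2, bounded at 1.10-fold, Kat7 at 1.10-fold and Kat6b at 1.11-fold.

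**Figure D3:**
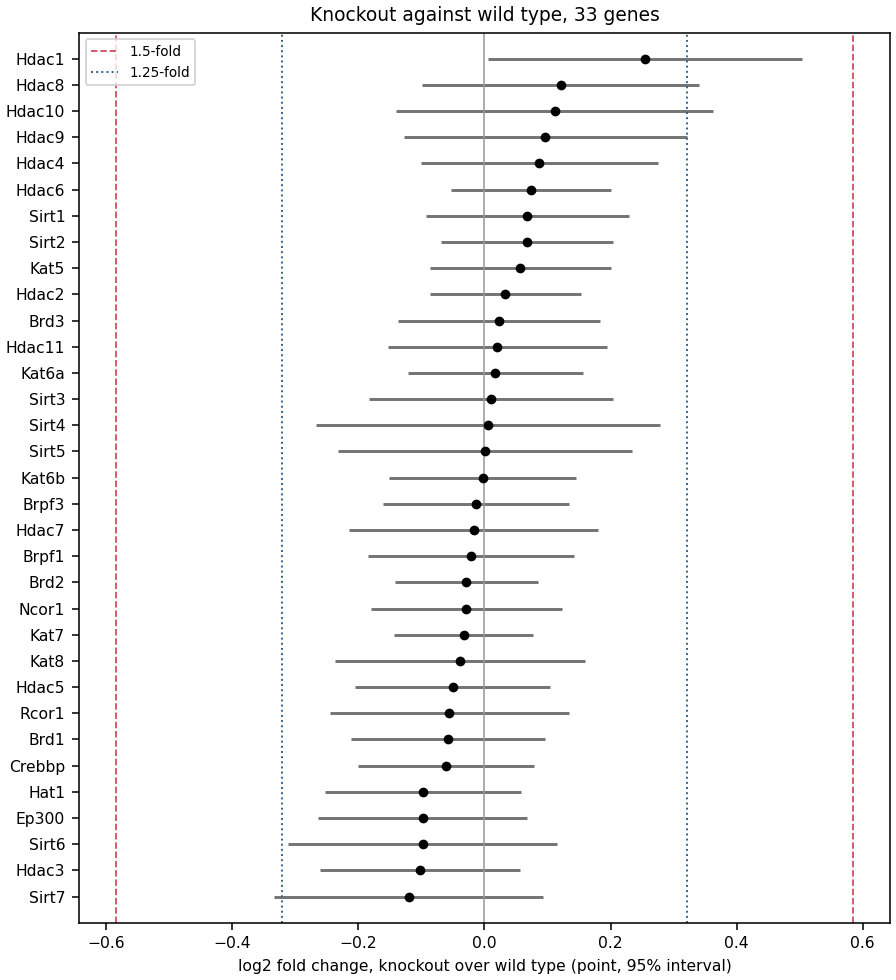
Log2 fold change of knockout over wild type (points) with 95% intervals from the quasi-likelihood fit, ordered by value; dashed lines mark 1.5-fold and dotted lines 1.25-fold. All 33 intervals lie inside the dashed lines, and Hdac1 is the 1 whose interval does not include 0.

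Among class I deacetylases, Hdac1 had the largest difference of all members. Hdac1 was at 5.75, 4.80, 5.32 and 6.39 CPM in the wild-type group, replicates 1 to 4, and at 6.93, 6.39, 6.35 and 6.90 CPM in the knockout group. The knockout libraries were the higher ones except that wild-type replicate 4 reached their lower end, so the groups overlapped. The log2 ratio was 0.25 (SE 0.11, 95% interval 0.0053 to 0.50), with an unadjusted p = 0.0460 and an adjusted p = 0.999 by edgeR. Across the 12 alternatives the ratio was 0.19 to 0.33, the unadjusted p was 0.0142 to 0.133 (under 0.05 in 3 of 12), and the lowest adjusted p was 0.607, by edgeR without wild-type replicate 4. Astrocyte markers were also mostly higher in the knockout: 11 of 12 lay above 0, against 49.5% of all tested genes. In edgeR 8 of the 12 were higher with an unadjusted p under 0.05, against 1.96% of all tested genes. Past the adjusted threshold there were 0. The summed astrocyte level was 7157 to 7885 CPM in the wild-type group and 8035 to 8542 CPM in the knockout group, with no marker at 0 in any library. Wild-type replicate 4, with the highest wild-type Hdac1, had the lowest astrocyte score of the 8 libraries (-0.152). Markers of other cell types lay above 0 too: 5 of 5 for blood (median log2 ratio 0.48), 10 of 10 for microglia (0.08), 8 of 10 for endothelium (0.19) and, as given further on, the oligodendrocyte list. Of the neuronal markers, 9 of 12 lay above 0 for spiny neurons (0.03), 6 of 8 for interneurons (0.11) and 5 of 10 for cortical and thalamic neurons (0.09). The choroid plexus list, high in wild-type replicate 4, went the other way, with 0 of 8 above 0 (-2.25). The summed blood level was 56.0 to 93.2 CPM against 88.9 to 156 CPM, with the highest scores in knockout replicates 1 and 4, where Hdac1 was also highest. Summed levels were 648 to 757 against 692 to 834 CPM for microglia and 252 to 344 against 307 to 378 CPM for endothelium, and no marker of these lists was at 0. The part of any of them in the Hdac1 value was not tested, and in whole tissue more cells of a type and more RNA per cell cannot be told apart.

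Hdac3 was at 90.4, 82.9, 99.8 and 82.6 CPM in the wild-type group, replicates 1 to 4, and 80.0, 81.7, 91.0 and 78.4 CPM in the knockout group. Replicate 3 was the highest in both genotypes, and the groups overlapped, with a log2 ratio of -0.10 (95% interval -0.26 to 0.056). Hdac8, an X-linked class I enzyme that acts on cohesin, was at 14.8, 12.2, 14.4 and 14.1 CPM in the wild-type group and 15.4, 13.6, 13.6 and 17.7 CPM in the knockout group. Knockout replicate 4 was its highest library, and its log2 fold change was 0.12 (95% interval -0.099 to 0.34). Hdac2 was the steadiest of the class, at 67.9 CPM ± 3.43 and 69.5 CPM ± 2.09 in wild type and knockout (SD, n = 4 each), a log2 ratio of 0.03.

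Class IIa deacetylases bind and repress MEF2 transcription factors and leave the nucleus when calcium-dependent kinases phosphorylate them. Hdac4 was at 57.4, 52.5, 50.5 and 64.2 CPM in the wild-type group and 55.8, 61.1, 66.9 and 54.6 CPM in the knockout group. The groups were interleaved, and the log2 ratio was 0.09 (95% interval -0.10 to 0.28). Hdac5, the most abundant of the class, was at 197 CPM ± 18.8 and 190.0 CPM ± 7.22 in wild type and knockout (SD, n = 4 each), with a log2 ratio of -0.05. Hdac7 and Hdac9 had log2 fold changes of -0.02 and 0.10, and the coefficient of variation of Hdac9 was 16.2% over the knockout libraries and 4.42% over the wild-type libraries, a difference that was not tested. Single libraries moved Hdac9: it was 0.01 without knockout replicate 4 and 0.20 without knockout replicate 3, the latter with an unadjusted p = 0.0229 and an adjusted p = 0.999 by edgeR.

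Of the remaining zinc-dependent enzymes, Hdac6, the cytoplasmic tubulin deacetylase, was at 52.3, 51.1, 51.9 and 48.3 CPM in the wild-type group and 49.7, 55.2, 56.3 and 52.9 CPM in the knockout group. Of its knockout libraries, 3 exceeded every wild-type library and replicate 1 lay within their range, with a log2 ratio of 0.07 (95% interval -0.053 to 0.20). Hdac10, a polyamine deacetylase, had 0.11 at 12.6 and 13.5 CPM. Hdac11 (plus strand of chromosome 6 at 91156665 to 91174692) was at 259, 222, 261 and 221 CPM in the wild-type group, replicates 1 to 4, and 236, 232, 232 and 276 CPM in the knockout group. Knockout replicate 4 was the highest library and wild-type replicates 2 and 4 the lowest, and the log2 ratio was 0.02 (95% interval -0.15 to 0.19).

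Sirtuins had log2 fold changes between -0.12 and 0.07, with 5 of 7 above 0 (4 with DESeq2's size factors, where Sirt5 crossed 0). Sirt7, the nucleolar sirtuin, was at 32.0, 29.0, 34.4 and 27.1 CPM in the wild-type group and 26.4, 27.3, 33.4 and 25.5 CPM in the knockout group. Replicate 3 was again the highest of both genotypes, and the log2 ratio was -0.12 (95% interval -0.33 to 0.092). Without knockout replicate 3 the Sirt7 value was -0.22, with an unadjusted p = 0.0317 and an adjusted p = 0.999 by edgeR. Sirt6, a chromatin-bound sirtuin tied to DNA repair, was at 14.0, 14.2, 16.9 and 12.6 CPM in the wild-type group and 12.5, 14.7, 13.8 and 12.8 CPM in the knockout group, with a log2 ratio of -0.10. Sirt1, the nuclear sirtuin best known for acting on transcription factors, had group means of 20.3 and 21.2 CPM and a log2 ratio of 0.07 (95% interval -0.093 to 0.23). Of the mitochondrial sirtuins, Sirt3 had group means of 73.7 and 74.2 CPM and Sirt4 of 11.3 CPM in both genotypes, while Sirt5 ran from 9.31 to 12.3 CPM over all libraries. Their log2 ratios were 0.01, 0.0051 and 0.00045.

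Sirt2 (plus strand of chromosome 7 at 28766735 to 28788661) was at 148, 128, 132 and 128 CPM in the wild-type group, replicates 1 to 4, and 146, 133, 136 and 146 CPM in the knockout group. Its 3 highest libraries were wild-type replicate 1 and knockout replicates 1 and 4, so the spread ran across the genotypes, and the log2 ratio was 0.07 (95% interval -0.069 to 0.20). Sirt2 varied with the level of oligodendrocyte transcripts in the library, though microglia transcripts varied in a similar way. The score of 12 oligodendrocyte and myelin markers, none of them a member, was highest in the same 3 libraries (0.129, 0.207 and 0.168) and lowest in wild-type replicates 2 and 4 (-0.287 and -0.159), where Sirt2 was lowest. The score of 10 microglia markers was highest in the same 3 libraries too (0.0868, 0.0495 and 0.182). It was also lowest in wild-type replicates 2 and 4 (-0.0979 and -0.173). Relations of Sirt2 with scores of other cell types were not tested.

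Over the 8 libraries, the correlation of log2 Sirt2 with this score was r = 0.92 (exact permutation p = 0.00174, adjusted p = 0.00521 over 3 relations). Spearman's rho was 0.83 (exact permutation p = 0.0154, adjusted p = 0.0461). Leaving out wild-type replicate 2 and knockout replicate 1, the libraries farthest from the median score, r was 0.94 (exact permutation p = 0.0153, adjusted p = 0.0458, n = 6) and rho 0.77 (exact permutation p = 0.103, adjusted p = 0.154, n = 6). For deviations from the genotype means, permuted within each genotype (576 assignments, an analysis chosen after the data were seen), r was 0.91 (exact permutation p = 0.0122, adjusted p = 0.0365). By that analysis Spearman's rho was 0.79 and missed the threshold once adjusted (exact permutation p = 0.0226, adjusted p = 0.0677). All 12 oligodendrocyte markers lay above 0 in the knockout comparison, their median log2 ratio was 0.17, and summed levels were 7577 to 10309 CPM in the wild-type group and 9210 to 10868 CPM in the knockout group. None of the 12 passed the adjusted threshold (edgeR quasi-likelihood), and 3 had an unadjusted p under 0.05, against 3.76% of all tested genes.

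**Figure D4:**
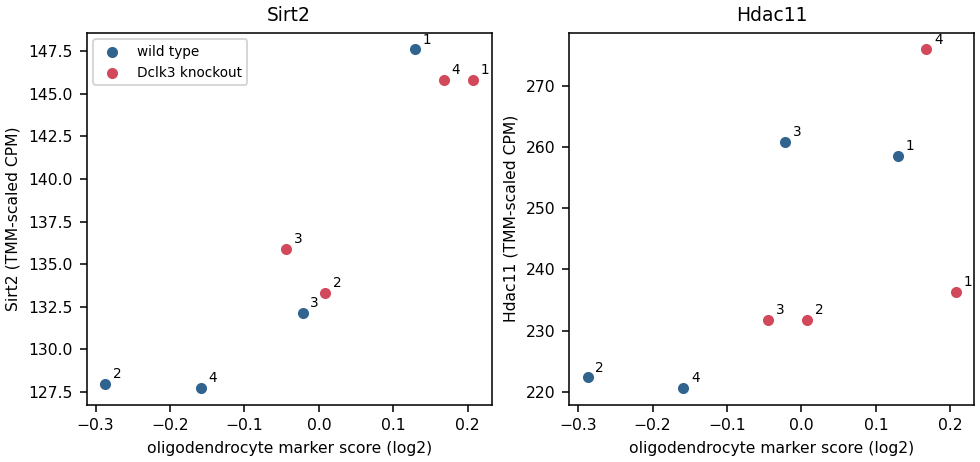
Sirt2 (left) and Hdac11 (right) in TMM-scaled CPM against the oligodendrocyte marker score (mean log2 deviation of 12 markers); each point is 1 library, numbered by replicate and coloured by genotype. Sirt2 is lowest in wild-type replicates 2 and 4, which have the lowest scores, and highest in the 3 libraries with the highest scores.

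Hdac11, which is also expressed in oligodendrocytes, gave r = 0.67 with the same score (exact permutation p = 0.0728, adjusted p = 0.109, n = 8) and rho = 0.74 (exact permutation p = 0.0458, adjusted p = 0.0687, n = 8). Without the same 2 libraries r was 0.84 (exact permutation p = 0.0319, adjusted p = 0.0479, n = 6), while rho was 0.83 and missed the threshold (exact permutation p = 0.0583, adjusted p = 0.154, n = 6). Within genotype, r was 0.74 (exact permutation p = 0.106, adjusted p = 0.155) and rho 0.76 (exact permutation p = 0.0781, adjusted p = 0.0851). Both missed the threshold. Knockout replicate 1 had the highest score, and its Hdac11 level of 236 CPM lay in the middle of the range. Hdac7, known from vascular endothelium, gave r = -0.51 with the score of 10 endothelial markers (exact permutation p = 0.203, adjusted p = 0.203, n = 8) and rho = -0.67 (exact permutation p = 0.0831, adjusted p = 0.0831, n = 8). Without wild-type replicate 3 and knockout replicate 1 its r was -0.34 (exact permutation p = 0.499, adjusted p = 0.499, n = 6). Within genotype, the r of Hdac7 was -0.55 (exact permutation p = 0.155, adjusted p = 0.155) and its rho -0.73 (exact permutation p = 0.0851, adjusted p = 0.0851).

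Acetyltransferases had log2 fold changes between -0.10 and 0.06. Ep300 (plus strand of chromosome 15 at 81585351 to 81652077) was at 78.3, 82.5, 67.1 and 83.9 CPM in the wild-type group and 68.2, 69.1, 77.4 and 76.6 CPM in the knockout group. Of the wild-type libraries, 3 of 4 lay above all knockout libraries, while wild-type replicate 3 lay below them, and the log2 ratio was -0.10 (95% interval -0.26 to 0.068). Crebbp was at 67.5 CPM ± 5.04 and 64.7 CPM ± 2.77 (SD, n = 4 each), a log2 ratio of -0.06. Without wild-type replicate 3 the Ep300 value was -0.16, with an unadjusted p = 0.0262 and an adjusted p = 0.916 by edgeR (lowest adjusted p of the 12 alternatives 0.842, with no filter).

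Hat1, which acetylates newly made histone H4 before it is deposited, was at 15.5, 16.2, 16.9 and 16.5 CPM in the wild-type group and 15.9, 15.4, 15.5 and 14.0 CPM in the knockout group. Knockout replicate 4 was the lowest library and the groups overlapped, with a log2 ratio of -0.10 (95% interval -0.25 to 0.058). The MYST-family enzymes Kat5 (0.06), Kat6a (0.02), Kat6b (-0.0025), Kat7 (-0.03) and Kat8 (-0.04), the last of which acetylates histone H4 tails, had smaller log2 fold changes. Kat7 was among the steadiest members, at 93.5 CPM ± 3.32 and 91.4 CPM ± 2.18 in wild type and knockout (SD, n = 4 each).

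Of the readers and scaffolds, Brd1, which holds the HBO1 and MOZ enzymes on chromatin, was at 45.3, 51.4, 44.8 and 54.3 CPM in the wild-type group and 45.7, 49.4, 45.8 and 47.4 CPM in the knockout group. The knockout libraries lay inside the wild-type range, with a log2 ratio of -0.06 (95% interval -0.21 to 0.096). Brd2 was at 201 CPM ± 5.85 and 197 CPM ± 4.93 (SD, n = 4 each) and had the smallest wild-type coefficient of variation of the members, 2.91%. Brd3 (0.02), Brpf1 (-0.02) and Brpf3 (-0.01) had log2 fold changes within 0.03 of 0.

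The corepressors lay close to 0 as well. Rcor1 (CoREST), which joins Hdac1 and Hdac2 to the demethylase LSD1, was at 25.5, 30.4, 25.2 and 33.1 CPM in the wild-type group and 26.9, 27.7, 28.3 and 27.0 CPM in the knockout group. All knockout libraries lay inside the wild-type range, and the log2 ratio was -0.06 (95% interval -0.25 to 0.13). Ncor1, the scaffold that activates Hdac3, was at 206 CPM ± 17.0 and 202 CPM ± 10.9 (SD, n = 4 each), a log2 ratio of -0.03.

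Members varied together with transcript length in some libraries. In wild-type replicate 3 the 8 members with the longest merged exons, among them Kat6b, Hdac4, Ep300 and Crebbp (8.78 to 16.8 kilobases for the 8), had a median log2 deviation of -0.149 from the mean of the libraries, with 7 of 8 below 0. The 8 shortest (2.40 to 3.85 kilobases), among them Sirt4, Sirt6 and Kat8, had 0.139, with 7 of 8 above 0. Wild-type replicate 4 had the opposite pattern, 0.119 for the long and -0.0792 for the short members. Across the 33 members the Spearman correlation of deviation with length was -0.64 in wild-type replicate 3 and 0.45 in wild-type replicate 4. It was 0.40 in wild-type replicate 2 while the other 5 libraries ran from -0.12 to 0.28. Over 11488 genes at least as abundant as the lowest member it was -0.44 and 0.35 in wild-type replicates 3 and 4. These are correlations across genes within a library, and genes are not independent replicates. The part of this pattern in the fold changes was not tested. Among wild-type libraries the median coefficient of variation was 8.86% over the members and 7.84% over 11499 tested genes of at least the lowest member's level.

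**Figure D5:**
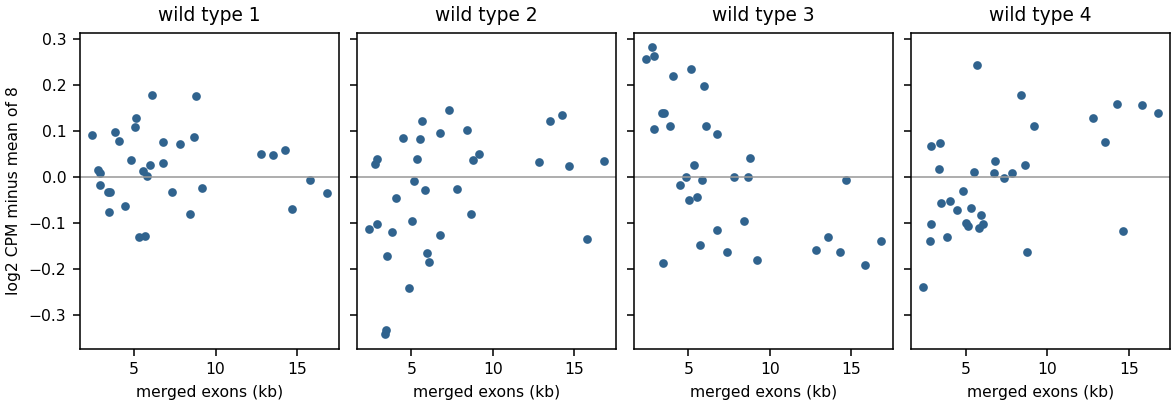
Deviation of each of the 33 genes from its mean over the 8 libraries (log2 CPM) against its merged exon length in kilobases, in the 4 wild-type libraries. Of the 8 longest genes, 7 lie below 0 in wild-type replicate 3, Hdac5 being the exception, and they lie mostly above 0 in wild-type replicate 4.

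Other genes of the same pathways had no call either. Of 129 further genes in 6 lists, 127 were measured, and 0 passed the adjusted threshold in edgeR's quasi-likelihood test. An unadjusted p under 0.05 was found for 5 (3.94%), against 3.76% of all tested genes in either direction. All 5 were lower in the knockout, where 296 of the 16511 tested genes were lower and 324 higher with such a p. Of the 127, 54 (42.5%) lay above 0 and 73 below, against 49.5% above 0 over all tested genes, with a median of -0.02. Deacetylase complex subunits had 10 of 27 above 0 and a median of -0.03. Among them Rcor2, a CoREST-family corepressor, had -0.21. Subunits of MYST complexes had 9 of 29 above 0 and a median of -0.03, with Kansl2 at -0.28 and Meaf6 at -0.09. Acetyltransferases outside the set had 4 of 12 above 0 and a median of -0.03, with Ncoa3 at -0.11 and Gtf3c4 at -0.08.

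Other acetyl-lysine readers had 17 of 29 above 0 and a median of 0.01. Baz1a, a bromodomain subunit of chromatin remodellers, was at 4.42, 5.02, 3.68 and 4.85 CPM in the wild-type group and 3.36, 2.62, 3.56 and 3.61 CPM in the knockout group. Its highest knockout library was under its lowest wild-type library, with a log2 ratio of -0.45 (95% interval -0.78 to -0.12) and an adjusted p = 0.999 by edgeR. The groups of libraries did not overlap in 2 of the 127 genes, Baz1a and, named after its values were seen, the CREB coactivator gene Crtc1 (-0.08), against 1.93% of all tested genes. Dpf1, a reader subunit of the neuronal BAF complex, had -0.17. Transcription factor and kinase partners had 8 of 17 above 0 and a median of -0.0093, with Mef2d, a factor that class IIa deacetylases repress, at -0.15 and Ppargc1a, a coactivator that Sirt1 deacetylates, at 0.14. Genes of NAD supply and use had 6 of 13 above 0 and a median of -0.01, with the NAD-consuming ectoenzyme gene Cd38 at 0.40, at 8.25 CPM in knockout replicate 4 and at most 4.84 CPM in every other library but knockout replicate 1, and Sarm1 at -0.10.

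Exons of 17 of the 33 members overlap those of another annotated gene, 5 on the same strand and 12 on the opposite strand only. On the same strand, the part shared with any single gene was at most 2.41% of the member's exon bases. That was Sirt7 with Mafg, and Sirt7 also shared 1.05% with Mir6936. On the opposite strand it reached 22.4% in Hdac4 (Gm26720), 15.4% in Hdac11 (Gm44002) and 12.1% in Kat5 (Rnaseh2c). The library kit marks strand, but the sources used here do not give the strand setting of the counting, so reads of the overlapping gene may be part of these values.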

How the data were processed

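RNA of 8 mouse striata was measured by poly(A) RNA sequencing. The authors deposited raw read counts per Ensembl gene, in columns that the header marks as raw. Per the submitters' processing notes, bcl2fastq 2.17.1.14 converted the base calls and the build was mm10. No source used here gives the aligner, counter, annotation release or strand setting.

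Symbols, positions and exon lengths came from GENCODE for GRCm38, the assembly that mm10 names, and 31292 of 31417 identifiers matched. The unmatched ones held 0.0436% of the counts. In R 4.3.3, edgeR 4.0.16 kept 16511 genes (filterByExpr, minimum count 10), scaled the libraries by TMM and fitted its robust quasi-likelihood model to genotype alone. P-values are two-sided and Benjamini-Hochberg adjusted over all 16511 genes, with a threshold of 0.05. CPM values are TMM-scaled. The procedure was tested on simulated data. The floor of 3 counts was 0.0822 to 0.123 CPM and covers counting error only.

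The members and lists were chosen by name, with earlier results of these data known. All 33 members are accounted for. Values in every library are given for the 10 members with the smallest p and the first of each role group, and 2 genes with the smallest p are named in each further list; genes named outside this rule are marked as such. One gene that the rule names among the deacetylase complex subunits is not reported here. Alternatives were DESeq2's size factors, no filter, the DESeq2 1.42.0 Wald test, a replicate block and leaving out each library. Relations within genotype were added after the data were seen.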

Additional observations from a re-analysis of the deposited data

Results flagged for a closer look

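In 3 of the 68 groups of 4 libraries examined (33 members and Dclk3 in each genotype), a single library lay far from the others by Dixon's test, where chance flags about 1 group in 20. Hdac11 was at 276 CPM in knockout replicate 4, against 232 to 236 CPM in the other knockout libraries. Sirt4 was at 13.7 CPM in knockout replicate 3, against 10.2 to 10.7 CPM. Brd2 was at 189 CPM in knockout replicate 3, against 198.7 to 199.6 CPM.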

How the results depend on the processing

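Under 12 alternatives 0 members passed the adjusted threshold, the median member value stayed between -0.024 and 0.014, and 19 of 33 members kept their sign in all 12; the other 14 were within 0.056 of 0 on the log2 scale with all libraries and the settings of the report. Leaving out 1 library in turn gave Brd3 -0.025 to 0.079, Brpf1 -0.087 to 0.0088, Brpf3 -0.065 to 0.021, Hdac11 -0.044 to 0.061, Hdac5 -0.11 to 0.0017, Hdac7 -0.093 to 0.043, Kat6a -0.037 to 0.059, Kat6b -0.047 to 0.046, Kat8 -0.078 to 0.050, Ncor1 -0.084 to 0.010, Rcor1 -0.11 to 0.023, Sirt3 -0.041 to 0.082, Sirt4 -0.10 to 0.096 and Sirt5 -0.059 to 0.068. Sirt5 was -0.0016 with DESeq2's size factors, -0.0029 with no filter and -0.000081 in the DESeq2 test. Of all genes, 1 to 2 were called when 1 library was left out (2 without wild-type replicate 1), and 3 by the DESeq2 Wald test. With no filter in edgeR the 1 gene called was not Dclk3, which was at -2.07 with an adjusted p of 0.0647 (quasi-likelihood test). Same-numbered libraries had correlations of 0.037, 0.021, 0.053 and -0.28 between their deviations, and differently numbered ones ran from -0.16 to 0.24. Such correlations cannot show whether libraries of the same number were paired, and the labels state no pairing. With the replicate block 1 gene and 0 members were called, with a median member value of -0.00023. Leaving out the 2 libraries farthest from the median score raised the r of Hdac11 to 0.84, past the threshold, while its rho of 0.83 did not pass (exact permutation, adjusted p = 0.154). With 4 libraries per genotype, the narrowest interval of a member still allowed a change of 1.10-fold.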

Other observations

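The promoters of these genes were described by their base composition, which the choice by name did not use; no test was run. In RefSeq's table for GRCm38.p6, 29 of the 33 genes have an entry, with 41 start sites, and the 250 bases before each start were read. The median ratio of observed to expected CpG was 0.796 in these windows, against 0.373 over 32851 windows of the same length of all genes. A ratio above 0.6, a usual mark of a CpG island, was found in 30 of 41 windows (73.2%) and in 34.0% of all windows. All windows came from 27025 genes and were not limited to genes that passed the filter on low counts, as the members did. The contrast therefore need not be particular to the members. The other 11 windows had lower ratios, among them both of Hdac9 (0 and 0.175), that of Hdac8 (0.415) and that of Kat7 (0.510). The TATA box letters TATAAA, searched on both strands, were in 2 of 41 windows (4.88%) and 12.4% of all windows. The cAMP response element TGACGTCA was in 0 of 41 and 1.55% of all windows, and CCAAT in 14 of 41 (34.1%) and 33.8%. Windows of a gene with several starts can overlap, and a match of letters is not a binding site.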
